A study of Mus musculus with 12 samples.

Results

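The cells described here are the CD4-lineage cells of cluster 1, hereafter cluster 1 CD4 cells, from single-cell RNA and T cell receptor libraries of tumour T cells. They were chosen as the cells that the deposited cell table puts in cluster 1 and that held more unique molecules (UMIs) of Cd4 than of Cd8a and Cd8b1 together, which gave 4924 of 30749 cells. Both the clustering and the lineage rule used the expression values, so the genes that set these cells apart are given as description, without a test. The tumours were MCA205 fibrosarcomas in C57Bl/6 mice, started by subcutaneous injection of 300000 cells. All 6 mice were given oxaliplatin, a platinum drug, at 10 mg/kg 8 days after injection, and 200 µg of anti-PD1, an antibody to an inhibitory T cell receptor, after a further 8 days. The 3 anti-ACBP mice also received an antibody that neutralises acyl-CoA binding protein (ACBP, the product of Dbi), and the 3 isotype mice received a control IgG2a. Either antibody was given at a dose of 2.5 mg/kg, repeated every 2 days, starting 2 days ahead of oxaliplatin and ending the day before anti-PD1. Tumours were taken 2 days after anti-PD1, CD4 and CD8 T cells were sorted and combined in equal numbers, and 10000 cells per library were loaded.

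CD4 T cells recognise peptides on MHC class II molecules and act mostly through cytokines and surface ligands such as CD40 ligand. Conventional helper cells and Foxp3-expressing regulatory cells are the main kinds found in tumours, and an antigen-driven helper cell divides into a clone whose members keep the same receptor sequence. Naive and central memory cells recirculate through lymph nodes with the help of Ccr7 and S1pr1 and depend on the transcription factor TCF-1, encoded by Tcf7, whereas effector cells that stay in tissue lose most of these genes.

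By mouse there were 871, 404 and 833 cluster 1 CD4 cells in anti-ACBP mice and 1077, 1279 and 460 in isotype mice. They made up 48.2, 43.4 and 62.1% of all CD4-lineage cells in anti-ACBP mice and 37.5, 50.9 and 35.9% in isotype mice, groups that overlapped. Their summed depth was 5352753, 3065776 and 5493581 UMIs in anti-ACBP mice and 7425413, 5512441 and 1855078 UMIs in isotype mice. The median cell held 5475, 6686 and 5628 UMIs in anti-ACBP mice, against 5821, 3859 and 3472 in isotype mice, so isotype libraries 2 and 3 were shallower than the other 4. Any pair of libraries shared between 15 and 63 cell barcodes. A cell needed a lead of only 1 UMI to enter: 1154 of the chosen cells led by 1 Cd4 UMI, 1022 cells of cluster 1 had equal numbers of both kinds (956 of them none at all), and 83 were behind by 1.

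Cd4, Ramp3 and Tnfsf8 were found more widely in these cells than in CD8-lineage or regulatory T cells, but not more widely than in CD4-lineage cells of cluster 7, while Ccr7 and Tcf7 were found in a minority. For Cd4 this order was set by the lineage rule, by which every chosen cell had a Cd4 UMI. To compare shares of cells, each cell was reduced to 2000 UMIs by calculation, and 169 cells below that depth were left out. Regulatory T cells of cluster 2 here means all cells of that cluster, whatever their lineage call or Foxp3. A Cd4 UMI was then found in 71.5, 71.3 and 70.3% of cells in anti-ACBP mice and in 72.1, 79.1 and 82.3% in isotype mice, against a median over mice of 0.652% in CD8-lineage cells of cluster 0, which should lack Cd4, and 73.9% in CD4-lineage cells of cluster 7. Ramp3, a partner protein of calcitonin-family receptors, was found in 49.7, 57.0 and 47.4% of cells in anti-ACBP mice and in 53.4, 32.1 and 37.8% in isotype mice. Its median was 48.5%, against 24.8% in CD8-lineage cells of the same cluster, 54.4% in CD4-lineage cells of cluster 7 and 9.58% in regulatory T cells of cluster 2. Tnfsf8, which encodes CD30 ligand, was found in a median of 25.5% of cluster 1 CD4 cells, 10.4% of CD8-lineage cells of the same cluster, 34.5% of CD4-lineage cells of cluster 7 and 3.89% of regulatory T cells of cluster 2.

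Ccr7, the lymph node homing receptor, was found in 13.0, 23.6 and 8.94% of cluster 1 CD4 cells in anti-ACBP mice and in 19.7, 10.2 and 24.1% in isotype mice. The median was 16.3%, against 56.7% in CD8-lineage cells of the same cluster, 20.2% in CD4-lineage cells of cluster 7 and 5.60% in CD8-lineage cells of cluster 0. Tcf7 had a median of 12.8% in cluster 1 CD4 cells, 23.0% in the CD8-lineage cells beside them and 3.98% in cluster 7. Ccr7 and Tcf7 were thus found in a larger share of the CD8-lineage cells of cluster 1 than of its CD4-lineage cells, and the CD4-lineage cells are called here by cluster and lineage only. Before thinning, Ccr7 was found in 19.96% and Tcf7 in 22.0% of all cluster 1 CD4 cells, and the median cell had 4992 UMIs, against 5524 in the CD8-lineage cells of the cluster and 5945 in those of cluster 0.

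Genes of activated T cells in tissue were widely found, here and in other classes. Tnfrsf4, the costimulatory receptor OX40, was found in a median of 75.1% of thinned cluster 1 CD4 cells, 93.3% of regulatory T cells and 29.9% of CD8-lineage cells of cluster 0. The costimulatory receptor gene Icos was found in 71.3% of cluster 1 CD4 cells, 90.1% of regulatory T cells and 68.1% of the cluster 0 cells. Cxcr6, a tissue-homing chemokine receptor, was found in 67.6% of cluster 1 CD4 cells and 67.7% of the cluster 0 cells, and Pdcd1, the target of anti-PD1, in 51.1% of cluster 1 CD4 cells and 65.98% of the cluster 0 cells. Cd40lg, the ligand by which helper cells activate antigen-presenting cells, was found in 22.9%, against 4.28% in the CD8-lineage cells of the cluster. Ifng, the main T-helper 1 cytokine, was found in 18.4% of cluster 1 CD4 cells and 32.5% of CD4-lineage cells of cluster 7. In CPM, the UMIs of a gene scaled to a fixed total per library, the median mouse had 113.5 CPM of the T-helper 1 factor Tbx21 and 1.47 CPM of Cxcr5, the receptor of follicular helper cells. Tbx21 was not particular to these cells. Its thinned median was 18.8% here, 17.6% in the CD8-lineage cells of the cluster, 20.5% in cluster 7, 16.4% in regulatory T cells and 19.25% in the cluster 0 cells. Bcl6, another follicular helper gene, had medians of 7.425, 6.92, 8.43, 1.46 and 2.77% in the same order.

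**Figure D1:**
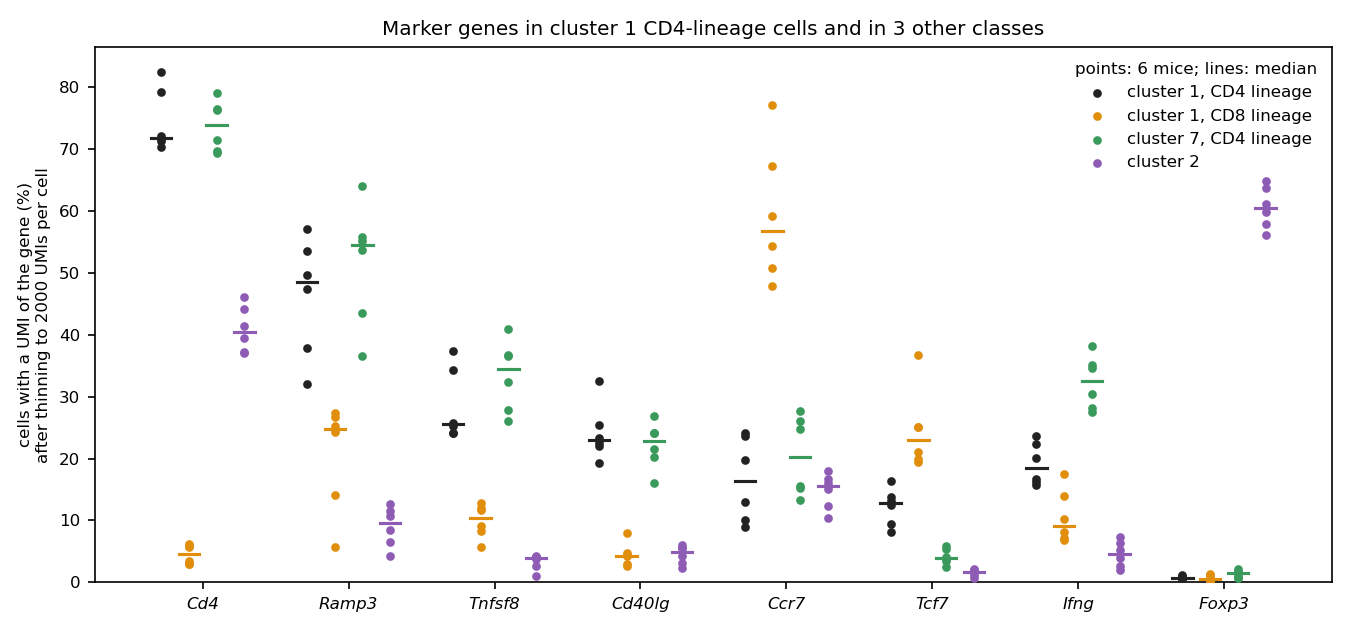
Share of cells with a UMI of each gene (vertical axis, percent, after thinning every cell to 2000 UMIs) in cluster 1 CD4 cells and in 3 other classes. Each point is a mouse and each line the median of 6 mice: Cd4, Ramp3, Tnfsf8 and Cd40lg were highest in the CD4-lineage classes of clusters 1 and 7, while Ccr7 had a median of 16.3% in cluster 1 CD4 cells and 56.7% in the CD8-lineage cells of the same cluster. The lineage rule itself used Cd4.

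The lists of B cells, macrophages and monocytes, neutrophils, gamma-delta T cells and erythroid cells were at or below 2.70 CPM in every mouse. Cd79a, Ms4a1, Sparc, Col1a2, C1qb, Adgre1, Ncr1, Flt3, Clec9a and all 4 haemoglobin genes on the lists had no UMI in any cluster 1 CD4 cell, but other genes on most lists did. At 0 were 5 of 6 B cell, 2 of 10 macrophage and monocyte, 3 of 8 natural killer and 3 of 10 dendritic cell genes. The natural killer list, 74.2% of whose UMIs were of Klre1, ran from 12.2 to 21.1 CPM over mice. The dendritic cell list ran from 72.8 to 150 CPM. Of the UMIs of the fibroblast and tumour list, 99.97% were of Thy1, which T cells express as well, and 81.7% of those of the dendritic cell list were of Cd74. A Cd8a or Cd8b1 UMI was present in 241 cells, at 5.63, 7.18 and 6.72% in anti-ACBP mice and 6.59, 1.49 and 3.70% in isotype mice. Foxp3 was found in 94 cells, at 2.64, 2.72 and 1.92% in anti-ACBP mice and 1.95, 1.41 and 1.09% in isotype mice before thinning. After thinning, its median was 0.781%, against 60.4% in regulatory T cells of cluster 2 and 0.343% in CD8-lineage cells of cluster 0. The whole regulatory T cell list of 9 genes, 46.2% of whose UMIs were of the activation gene Tnfrsf9, ran from 2000 to 2833 CPM in anti-ACBP mice and from 1881 to 2619 CPM in isotype mice, and none of its genes was at 0.

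Receptor sequences, which the choice of cells did not use, showed that cluster 1 CD4 cells were largely made of expanded clones. Exactly 1 TRB chain, the beta chain of the receptor, was assembled in 4179 cells, 623 had none and 122 had 2 or more. A clone was defined as the cells of 1 mouse with the same TRB V gene and CDR3 nucleotides. The 4179 cells fell into 1312 clones, of which 769 were seen once, 361 held 2 to 4 cells and 182 held 5 or more. The clones of 5 or more contained 2471 cells. The largest clone of each mouse is shown because it was the most expanded there. The sequences are CDR3 nucleotides of the TRB chain as assembled in the deposited receptor table, from a locus on mouse chromosome 6. Capitals mark the codons between the first codon (TGT, cysteine) and the last (TTT or TTC, phenylalanine).
anti-ACBP 1, TRBV13-3: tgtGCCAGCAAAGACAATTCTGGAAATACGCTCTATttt
anti-ACBP 2, TRBV15: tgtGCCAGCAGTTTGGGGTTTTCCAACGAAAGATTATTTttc
anti-ACBP 3, TRBV13-1: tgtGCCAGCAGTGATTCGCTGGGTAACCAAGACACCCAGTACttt
isotype 1, TRBV19: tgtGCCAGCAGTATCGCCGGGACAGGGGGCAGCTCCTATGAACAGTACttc
isotype 2, TRBV13-1: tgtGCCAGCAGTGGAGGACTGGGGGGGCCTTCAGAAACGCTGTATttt
isotype 3, TRBV3: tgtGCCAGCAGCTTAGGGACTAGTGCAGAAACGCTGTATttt

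These 6 clones held 32, 58 and 67 cluster 1 CD4 cells in anti-ACBP mice and 67, 70 and 47 in isotype mice. They made up 4.46, 16.4 and 9.65% of the receptor-typed cells in anti-ACBP mice and 7.35, 6.39 and 11.5% in isotype mice. Each chain was found in 1 mouse only, and of 1282 distinct TRB chains in cluster 1 CD4 cells 25 were seen in more than 1 mouse. Among cells of these clones with exactly 1 alpha chain, all carried the same one: 32 of 32, 51 of 51 and 63 of 63 in anti-ACBP mice and 64 of 64, 62 of 62 and 29 of 29 in isotype mice. The clones were not limited to cluster 1. In the whole library they counted 48, 109 and 102 cells in anti-ACBP mice and 146, 111 and 81 in isotype mice, and 17 cells of the isotype 1 clone lay in cluster 2.

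The degree of expansion did not separate the treatments. With each mouse reduced to 353 typed cells, the expected share of cells that had another cell of their clone was 69.6, 70.0 and 76.3% in anti-ACBP mice and 68.2, 79.7 and 72.1% in isotype mice, a difference of -1.38 percentage points (exact two-sided permutation test over mice, p = 0.7; the smallest p of 3 against 3 is 0.1). The difference was 1.80 points without isotype 2. Set against the CD8-lineage cells of the cluster at 69 cells per class and mouse, the expanded share was 46.6 ± 5.36% in cluster 1 CD4 cells and 39.4 ± 10.0% in the CD8-lineage cells (SD, n = 6 mice; exact paired permutation test, p = 0.375, where 0.0313 is the smallest possible). A TRB chain also present in any cell of cluster 2 of the same mouse, with or without a Foxp3 UMI, was carried by 27.7, 38.8 and 28.5% of typed cells in anti-ACBP mice and by 22.8, 33.2 and 30.5% in isotype mice (exact permutation test, p = 0.6). Without anti-ACBP 2 the difference of 2.88 points became -0.69, and without isotype 1 -0.12. Of the typed cluster 2 cells with a chain of a cluster 1 CD4 cell, 4.35, 50 and 23.5% in anti-ACBP mice and 70.2, 32.8 and 70.9% in isotype mice had a Foxp3 UMI. Adjusted over these 3 tests by Benjamini-Hochberg, each p was 0.7. With 3 mice per group these tests cannot show that the groups were alike.

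Most typed CD4-lineage cells of clusters 3, 4, 5 and 7 carried receptors of cluster 1 CD4 cells, and CD8-lineage cells rarely did. Of typed CD4-lineage cells of cluster 7, 79.1, 92.5 and 78.9% in anti-ACBP mice and 82.9, 83.5 and 81.5% in isotype mice had a TRB chain that was also in cluster 1 CD4 cells of the same mouse. The shares ran from 84.0 to 90.5% over the 6 mice for CD4-lineage cells of cluster 5, from 72.4 to 93.4% for those of cluster 4 and from 82.6 to 97.1% for those of cluster 3. Typed CD8-lineage cells of clusters 0, 3 and 6 had such a chain in 0 to 0.540% of cases. For cluster 1 cells with no lineage call the share was 42.0 to 73.7%. Within each mouse it was below that of each of these CD4-lineage classes, although the ranges overlapped between mice. The shares are descriptions and depend on how many cells of each class were sampled.

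Within cluster 1, the CD8-lineage cells shared few receptors with the CD4-lineage cells. In anti-ACBP mice 5 of 134, 3 of 115 and 8 of 167 typed CD8-lineage cells, and in isotype mice 3 of 173, 3 of 69 and 1 of 116, had a TRB chain of a cluster 1 CD4 cell. Counted from the other side, those chains belonged to 8.08, 18.7 and 22.1% of typed cluster 1 CD4 cells in anti-ACBP mice and to 2.19, 2.83 and 1.47% in isotype mice. The 2 groups did not overlap in the second count, but it rests on those few CD8-lineage cells, since 1 of them in a large clone counts all cells of that clone. Whether these cells were misassigned or mixed between barcodes was not tested.

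**Figure D2:**
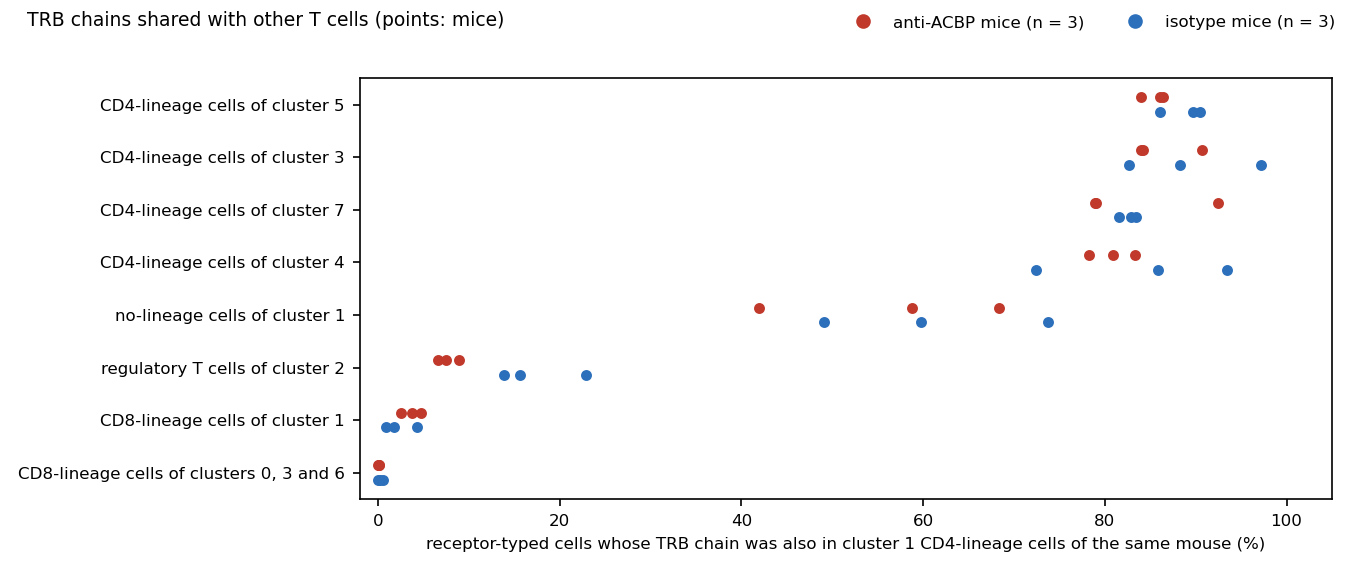
Share of receptor-typed cells of other classes (horizontal axis, percent) whose TRB chain was also found in cluster 1 CD4 cells of the same mouse. Points are mice, anti-ACBP in red and isotype in blue: CD4-lineage cells of clusters 3, 4, 5 and 7 lay between 72.4 and 97.1%, and CD8-lineage cells of clusters 0, 3 and 6 at or below 0.540%.

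Clone size went with differences in expression. Cells of large clones (5 or more cluster 1 CD4 cells) were compared with cells whose TRB chain was seen once among cluster 1 CD4 cells. Cells of other classes were not counted, so a chain seen once could belong to a clone with more cells there. The numbers of typed cells were not made equal between mice. UMI sums per mouse were tested with the mouse as a block, a test that was chosen after the receptor data were seen. Cells of large clones were higher in genes of cytotoxicity, T-helper 1 function and glycolysis, and lower in genes of recirculating, naive or central memory T cells. There were 394, 129 and 436 cells of large clones in anti-ACBP mice and 507, 799 and 206 in isotype mice, against 164, 106 and 118 cells seen once in anti-ACBP mice and 171, 102 and 108 in isotype mice. Of 7118 tested genes, 924 (13.0%) had an adjusted p under 0.05 (edgeR quasi-likelihood test, Benjamini-Hochberg). Of these, 407 (5.72% of those tested) were higher and 517 (7.26%) lower in large clones.

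Tcf7 stood at 51.1, 33.95 and 24.03 CPM in large clones of anti-ACBP mice and 56.5, 32.6 and 29.3 CPM in those of isotype mice, against 123, 136 and 108 CPM in cells seen once of anti-ACBP mice and 182, 169 and 197 CPM in those of isotype mice. It averaged 37.9 ± 12.9 CPM in large clones and 152 ± 35.5 CPM in cells seen once (SD, n = 6 mice), lower in large clones of all 6 mice (edgeR log2 fold change -1.94 ± 0.14 SE, adjusted p = 2.4e-08). S1pr1, the receptor for tissue exit, averaged 18.3 ± 4.803 CPM in large clones and 99.5 ± 24.8 CPM in cells seen once (SD, n = 6; log2 fold change -2.37 ± 0.13 SE; edgeR adjusted p = 1.5e-15). Klf2, the transcription factor that drives S1pr1, averaged 49.3 ± 13.99 CPM in large clones and 260.1 ± 69.2 CPM in cells seen once (SD, n = 6; edgeR adjusted p = 0.00103). For each of these 3 genes the lowest mouse of the cells seen once was above the highest mouse of the large clones.

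Of the 25 genes on the naive and central memory list 19 were tested, 16 were lower in large clones, none was higher and 3 did not pass, with a median log2 fold change of -0.84 against -0.01 over all tested genes. The 16 also included Klf3 (-1.75), Actn1 (-1.55), Bach2 (-0.71), Foxp1 (-0.73) and the interleukin-7 receptor Il7r (-0.75). Ccr7 did not pass, with 379 ± 222 CPM in large clones and 491 ± 166 CPM in cells seen once (SD, n = 6; edgeR adjusted p = 0.529), higher in large clones of 2 of the 6 mice. Of 84 tested genes of ribosomal proteins, 58 were lower and 1 higher in large clones, with a median of -0.16.

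Large clones were higher in effector genes. Cxcr6 averaged 882 ± 136 CPM in large clones and 536 ± 116 CPM in cells seen once (SD, n = 6), higher in all 6 mice (edgeR log2 fold change 0.71 ± 0.05 SE, adjusted p = 1.0e-12). Nkg7, a protein of cytotoxic granules, averaged 1057 ± 172 CPM in large clones and 590.4 ± 116 CPM in cells seen once (SD, n = 6; log2 fold change 0.81 ± 0.06 SE; edgeR adjusted p = 1.4e-11). Ifng stood at 386, 968 and 892 CPM in large clones of anti-ACBP mice and 337, 557 and 460.3 CPM in those of isotype mice, against 148, 379 and 519.8 CPM in cells seen once of anti-ACBP mice and 59.7, 187 and 232 CPM in those of isotype mice. Each mouse had more Ifng in its large clones, although the ranges overlapped between mice (log2 fold change 1.33 ± 0.21 SE; edgeR adjusted p = 0.0143).

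Of 17 tested T-helper 1 genes, 8 were higher and 2 lower in large clones. The 8 included Il12rb2, a chain of the interleukin-12 receptor (0.69), Il18rap (0.61) and Tbx21 (0.52), and the 2 included the chemokine receptor gene Cxcr3 (-0.97). Of 19 tested cytotoxic effector genes, 10 were higher and 1 lower, among them the granzyme gene Gzme (2.97), which averaged 22.1 CPM in large clones and 3.37 CPM in cells seen once and belongs to a family of near-identical genes, the chemokine Ccl3 (2.18) and the natural killer receptor genes Klrc1 (0.81) and Klrd1 (0.77). Glycolysis and hypoxia genes were higher in 23 of 34 tested cases and lower in none, including Slc2a3 (0.77), Tpi1 (0.56), Pgk1 (0.50) and Aldoa (0.41). Of 36 tested type I interferon response genes 13 were lower in large clones and none higher, with a median of -0.38. Of 14 tested genes of exhaustion and inhibitory receptors, 4 were higher and 1 lower in large clones and 9 did not pass, with a median of 0.14. Havcr2, which encodes TIM-3, had a log2 fold change of 0.86 and Pdcd1 of 0.45, both higher in large clones (edgeR adjusted p = 9.4e-08 and 0.0121). Lag3 (0.68), Tigit (0.38) and Ctla4 (0.14) did not pass. The proliferation marker Mki67 (-0.12), Bcl6 (0.39) and Gzmb (0.00) did not pass.

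Of the markers of other T cells, the regulatory T cell list was higher in large clones of all 6 mice, at 1955, 2850 and 3030 CPM in large clones of anti-ACBP mice and 2000, 2631 and 2824 CPM in those of isotype mice, against 1773, 1796 and 2193 CPM in cells seen once of anti-ACBP mice and 1524, 2189 and 2073 CPM in those of isotype mice, and its part in these differences was not tested. Foxp3 itself ran from 0 to 7.76 CPM over mice in large clones and from 0 to 19.2 CPM in cells seen once, and Cd8b1 from 1.48 to 17.5 CPM in large clones and from 4.26 to 13.1 CPM in cells seen once. With all cells that had a Foxp3, Cd8a or Cd8b1 UMI left out, 886 genes passed, 804 of them among the 924. Median UMIs per cell were 5824, 7439 and 5788 in large clones of anti-ACBP mice and 6436, 3907 and 3820 in those of isotype mice, against 4782, 5307 and 5027 in cells seen once of anti-ACBP mice and 4979, 3520 and 3051 in those of isotype mice, lower in every mouse; the part of depth in these differences was not tested. Without isotype 1, the library with the largest sums, 592 genes passed.

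**Figure D3:**
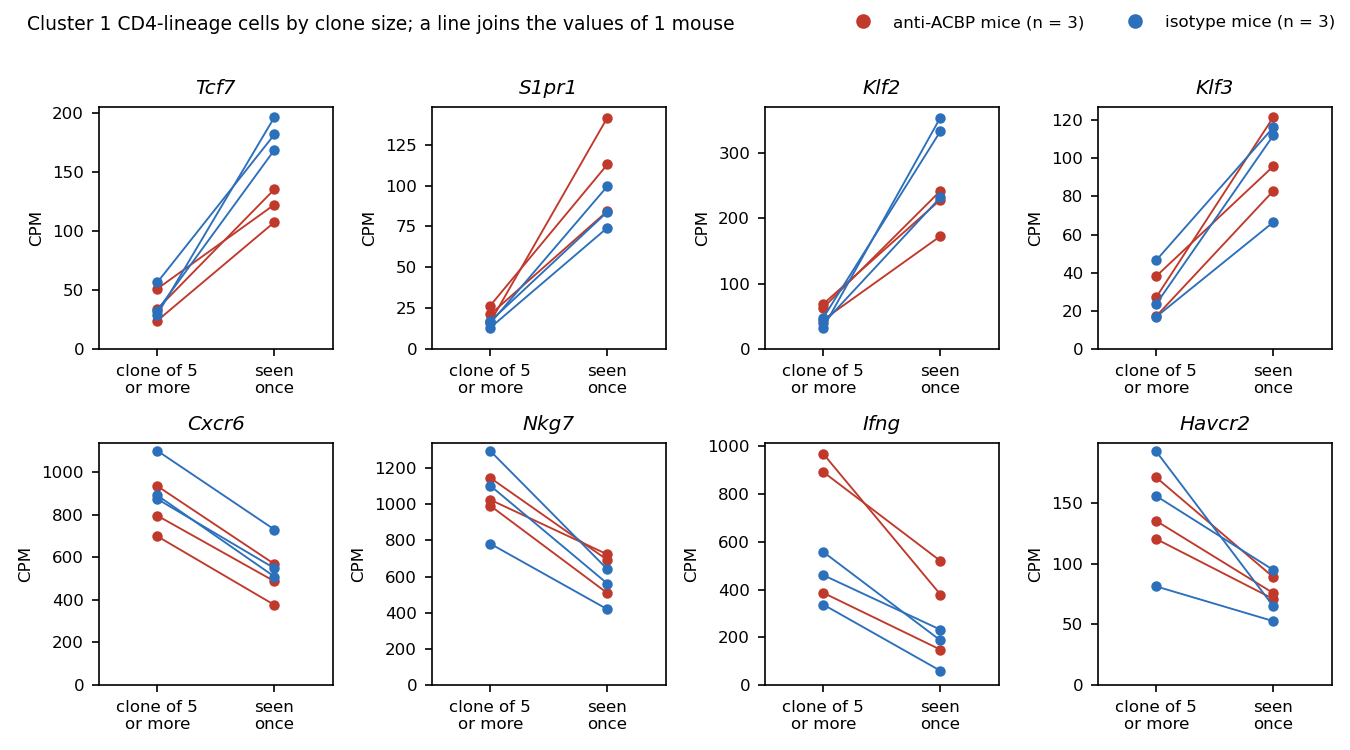
CPM of 8 genes (vertical axes, each from 0) in cluster 1 CD4 cells of clones of 5 or more cells and in those whose TRB chain was seen once. Clone size was counted among cluster 1 CD4 cells only. There is 1 line per mouse, anti-ACBP in red and isotype in blue. Tcf7, S1pr1, Klf2 and Klf3 were lower and Cxcr6, Nkg7, Ifng and Havcr2 higher in large clones of all 6 mice.

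The comparison of the 2 treatments asked how the same cells differed in tumours of mice given anti-ACBP. With anti-ACBP, Lmna, Sgk1, Emp1 and Rnf125 rose, and Ddit4, Abhd18, Trim59, Cdkn2d and Sostdc1 fell. These were the 9 genes with an adjusted p under 0.05 (edgeR quasi-likelihood test on UMI sums per mouse, Benjamini-Hochberg) of 10054 tested, or 0.0895%, with 4 higher (0.0398%) and 5 lower (0.0497%). At an unadjusted p under 0.05 there were 1241. The median log2 fold change of all tested genes was -0.01.

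Lmna, the gene of lamins A and C of the nuclear envelope, stood at 137, 129 and 139 CPM in anti-ACBP mice, against 37.4, 29.9 and 35.7 CPM in isotype mice. All 3 anti-ACBP mice were above all 3 isotype mice (edgeR log2 fold change 1.98 ± 0.12 SE, adjusted p = 1.5e-05). In thinned cells, a Lmna UMI was found in 19.2, 18.6 and 19.3% of cells in anti-ACBP mice and in 7.17, 4.89 and 6.74% in isotype mice. The groups were also apart within each clone-size class. Cells seen once had 115, 140.2 and 137 CPM in anti-ACBP mice and 48.6, 41.0 and 32.4 CPM in isotype mice, and large clones had 128, 109 and 139.9 CPM in anti-ACBP mice and 33.4, 28.5 and 29.3 CPM in isotype mice.

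Ddit4, an inhibitor of the growth kinase complex mTORC1 that is induced by hypoxia and stress, stood at 213, 258 and 229.7 CPM in anti-ACBP mice, against 468, 592 and 543 CPM in isotype mice. Here the anti-ACBP mice were all below the isotype mice (edgeR log2 fold change -1.19 ± 0.10 SE, adjusted p = 0.000443). It was found in 28.3, 29.6 and 27.6% of thinned cells in anti-ACBP mice and in 50.3, 57.1 and 53.04% in isotype mice. Sgk1, a kinase downstream of mTORC2 and of glucocorticoids, stood at 24.2, 26.8 and 28.3 CPM in anti-ACBP mice and 10.9, 5.46 and 10.8 CPM in isotype mice (edgeR log2 fold change 1.58 ± 0.24 SE, adjusted p = 0.0317).

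Emp1, an epithelial membrane protein, averaged 56.6 ± 9.43 CPM in anti-ACBP mice and 22.6 ± 0.765 CPM in isotype mice (SD, n = 3 each; log2 fold change 1.34; edgeR adjusted p = 0.00283). Rnf125, a ubiquitin ligase that restrains antiviral RNA sensing, averaged 248.5 ± 30.5 CPM in anti-ACBP mice and 145 ± 3.27 CPM in isotype mice (SD, n = 3 each; log2 fold change 0.79; edgeR adjusted p = 0.0144). Cdkn2d, an inhibitor of the kinases CDK4 and CDK6, averaged 51.6 ± 6.34 CPM in anti-ACBP mice and 92.5 ± 10.3 CPM in isotype mice (SD, n = 3 each; log2 fold change -0.82; edgeR adjusted p = 0.0317). Trim59 (-1.11) averaged 25.6 CPM in anti-ACBP mice and 56.6 CPM in isotype mice, and Abhd18 (-1.37) 8.74 CPM in anti-ACBP mice and 23.2 CPM in isotype mice. Sostdc1 (-2.78), a secreted antagonist of BMP and Wnt signals, was the lowest of the 9 in abundance, with 7, 2 and 4 UMIs in anti-ACBP mice and 60, 34 and 8 UMIs in isotype mice. It is named because it passed, although it lay under the 10 CPM set for named genes.

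The number of genes that passed depended on single mice. Without isotype 3, 2 passed, Lmna and Ddit4, and without isotype 1, 2 or anti-ACBP 3 it was 145, 20 and 14. All 9 genes kept their direction in each of those fits, and Lmna and Ddit4 passed in each of the 17 alternatives run for this comparison. Foxp3 moved with the groups, at 10.3, 9.49 and 8.04 CPM in anti-ACBP mice and 4.997, 6.19 and 2.70 CPM in isotype mice, without overlap. With cells holding a Foxp3 UMI left out 13 genes passed, and with those holding a Cd8a or Cd8b1 UMI left out 16, and all 9 were among them each time. The endothelial list, 95.3% of whose UMIs were of Pecam1, ran from 17.4 to 22.8 CPM in anti-ACBP mice and from 26.0 to 30.3 CPM in isotype mice, with Kdr and Plvap at 0, and its part in the results was not tested.

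**Figure D4:**
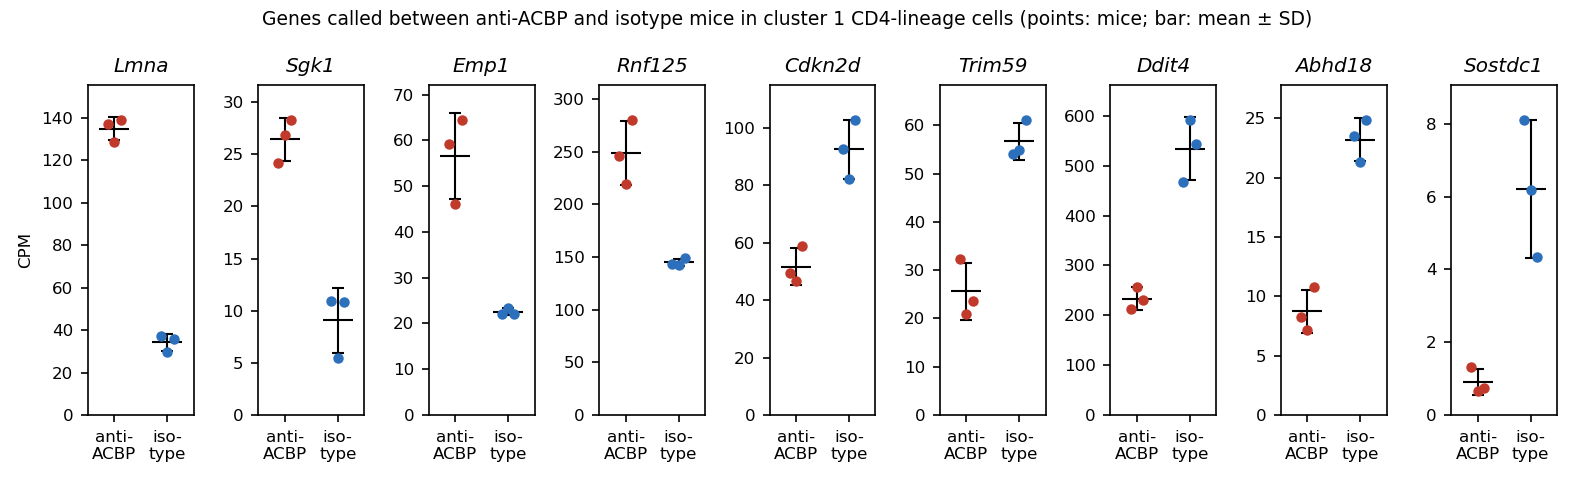
CPM (vertical axes, each from 0) of the 9 genes with an adjusted p under 0.05 in cluster 1 CD4 cells, anti-ACBP mice left and isotype mice right. Points are mice and bars the mean ± SD of 3 mice. In each of the 9 genes the 2 groups do not overlap, from Lmna with 134.9 CPM in anti-ACBP and 34.3 CPM in isotype mice to Sostdc1 with 0.899 CPM in anti-ACBP and 6.21 CPM in isotype mice.

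The genes next in order did not pass and are given as values. Toward higher levels with anti-ACBP these were Slc7a5, the large neutral amino acid transporter (1.15, edgeR adjusted p = 0.0513), Pmm2, an enzyme of mannose metabolism (0.85), Klf10 (1.14), Txnip, an inhibitor of glucose uptake and thioredoxin (1.10), Ing3 (0.87), Nrarp, a feedback inhibitor of Notch signalling (1.23), Fam83d (1.68) and Dnajb9, a chaperone of the endoplasmic reticulum (0.82). Toward lower levels they were Pdk1 (-0.83) and Pfkfb3 (-0.83), which steer pyruvate and fructose in glycolysis, Rinl (-0.61), Ccrl2 (-0.88), Pdxp (-1.25), Zbtb7b, the factor ThPOK that fixes the CD4 lineage (-0.74), Zfp654 (-0.77) and Tsc22d4 (-0.54). Their adjusted p ran from 0.0513 to 0.0763. Txnip stood at 225, 164 and 233 CPM in anti-ACBP mice and 92.8, 84.3 and 120.1 CPM in isotype mice, and Slc7a5 at 28.1, 37.3 and 26.8 CPM in anti-ACBP mice and 15.8, 11.5 and 13.5 CPM in isotype mice. In both genes the groups did not overlap.

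Gene lists are described by the number of tested genes in which the 3 anti-ACBP mice lay above or below all 3 isotype mice, which held for 18.1% of all tested genes, 9.14% above and 8.97% below. Of 38 tested type I interferon response genes, 36 had a negative log2 fold change, 14 lay below without overlap, none lay above and none passed, and the median was -0.31. Usp18, which ends interferon receptor signalling, stood at 13.5, 8.18 and 15.0 CPM in anti-ACBP mice and 15.1, 30.4 and 28.1 CPM in isotype mice (log2 fold change -0.91; edgeR adjusted p = 0.268). Xaf1 stood at 65.2, 58.6 and 62.1 CPM in anti-ACBP mice and 74.4, 101 and 94.6 CPM in isotype mice (-0.52; edgeR adjusted p = 0.127). Ifi27l2a, the most abundant of them, stood at 2924, 2816 and 2352 CPM in anti-ACBP mice and 4116, 3887 and 3067 CPM in isotype mice (-0.44). In each of these 3 genes the lowest isotype mouse was above the highest anti-ACBP mouse. Of 34 tested type II interferon genes, 19 were positive and 15 negative, with a median of 0.04.

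Of 34 tested glycolysis and hypoxia genes, Ddit4 fell and 33 did not pass, 12 lay below without overlap and none above, and the median was -0.23. Slc2a1, the glucose transporter GLUT1, stood at 70.8, 67.1 and 108.5 CPM in anti-ACBP mice and 162, 139 and 145.5 CPM in isotype mice (-0.85; edgeR adjusted p = 0.104). Hilpda, which encodes a hypoxia-induced protein of lipid droplets, stood at 339, 284 and 352 CPM in anti-ACBP mice and 438, 631 and 473 CPM in isotype mice (-0.65; edgeR adjusted p = 0.101), and the glycolytic enzyme Pgam1 at 368, 363 and 402 CPM in anti-ACBP mice and 653.5, 479.9 and 576 CPM in isotype mice (-0.59; edgeR adjusted p = 0.0889). None of the 3 overlapped between groups.

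Of 28 tested early activation genes 23 were positive, 8 lay above without overlap, 2 lay below and none passed, with a median of 0.36. Fosb, an AP-1 subunit, stood at 69.9, 109 and 136 CPM in anti-ACBP mice and 36.7, 34.4 and 26.0 CPM in isotype mice (1.65; edgeR adjusted p = 0.0623). Egr1, an immediate early factor, stood at 87.3, 82.8 and 139.7 CPM in anti-ACBP mice and 51.7, 34.6 and 33.5 CPM in isotype mice (1.34; edgeR adjusted p = 0.116), and Il2ra, the alpha chain of the interleukin-2 receptor, at 167, 207 and 163 CPM in anti-ACBP mice and 106, 106 and 139.5 CPM in isotype mice (0.63; edgeR adjusted p = 0.104). The AP-1 subunits Junb (-0.57) and Fosl2 (-0.43) were the 2 below without overlap, so members of the family were not all on one side. Of 21 tested dissociation and heat stress genes, which such sorted cells can show, 10 were positive and 11 negative, 6 lay above and 2 below without overlap, and the median was -0.01.

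Of 32 tested p53 and apoptosis genes 25 were positive, 8 lay above and 1 below without overlap, and the median was 0.20. Phlda3, a p53 target, stood at 7.87, 7.53 and 12.8 CPM in anti-ACBP mice and 3.38, 2.55 and 3.79 CPM in isotype mice (1.599; edgeR adjusted p = 0.0623), and Bcl2l11, which encodes the death protein BIM, at 84.5, 51.4 and 63.0 CPM in anti-ACBP mice and 49.8, 41.1 and 36.8 CPM in isotype mice (0.63; edgeR adjusted p = 0.253). Of 22 tested genes of NF-kappaB and MAP kinase feedback 20 were positive, 5 lay above and none below, with a median of 0.18, among them the NF-kappaB subunits Rela (0.56), Nfkb2 (0.44) and Relb (0.39). Of 25 tested cytokine receptor and SOCS genes 5 lay above and 2 below, with a median of 0.13. None of the genes of these 3 lists passed.

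Of 42 tested cell cycle genes 30 were negative, 7 lay below and 2 above, and the median was -0.19. Mki67 averaged 22.1 ± 4.44 CPM in anti-ACBP mice and 29.4 ± 4.19 CPM in isotype mice (SD, n = 3 each; -0.37; edgeR adjusted p = 0.393). By the deposited phase column, 83.8, 86.4 and 85.7% of cells were in G1 in anti-ACBP mice and 85.3, 82.8 and 83.5% in isotype mice, which overlapped, and with G1 cells only 9 genes passed. Among 15 tested follicular helper genes 4 lay below and none above, with a median of -0.22. Bcl6, the factor of follicular helper cells, stood at 32.8, 45.5 and 25.02 CPM in anti-ACBP mice and 72.3, 46.2 and 74.1 CPM in isotype mice (-0.91; edgeR adjusted p = 0.253). The second anti-ACBP and second isotype mouse were less than 1 CPM apart.

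Of 17 tested T-helper 1 genes 1 lay above and 1 below, none passed, and the median was 0.07. Of 15 tested genes of exhaustion and inhibitory receptors 1 lay below, the inhibitory receptor gene Cd160, none lay above or passed, and the median was -0.15. Ifng stood at 302, 697 and 715.5 CPM in anti-ACBP mice and 272, 446 and 334 CPM in isotype mice (0.70 ± 0.37 SE; edgeR adjusted p = 0.543), with the first anti-ACBP mouse inside the isotype range. Gzmb stood at 345.5, 92.3 and 206 CPM in anti-ACBP mice and 76.2, 140 and 171 CPM in isotype mice (0.79 ± 0.60 SE). Pdcd1 averaged 547 ± 104 CPM in anti-ACBP mice and 641 ± 51.8 CPM in isotype mice (SD, n = 3 each), and Cd40lg 171 ± 5.64 CPM in anti-ACBP mice and 179.9 ± 48.1 CPM in isotype mice. Ccr7 differed more within the groups than between their means, at 227, 651 and 229.7 CPM in anti-ACBP mice and 436.5, 222.5 and 587 CPM in isotype mice. Its means were 369 ± 244 CPM in anti-ACBP mice and 415 ± 183 CPM in isotype mice (SD, n = 3 each). Tcf7 stood at 76.6, 68.4 and 40.9 CPM in anti-ACBP mice and 84.5, 59.7 and 84.4 CPM in isotype mice. Dbi, which encodes the neutralised protein, stood at 134.9, 144 and 127 CPM in anti-ACBP mice and 152, 161 and 179.5 CPM in isotype mice, without overlap (-0.27 ± 0.10 SE; edgeR adjusted p = 0.316). Neither Il7r (0.41), Lef1 (0.29), Cxcr3 (0.22), Ramp3 (0.52), Tnfsf8 (0.24) nor Foxp3 (0.89) passed.

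**Figure D5:**
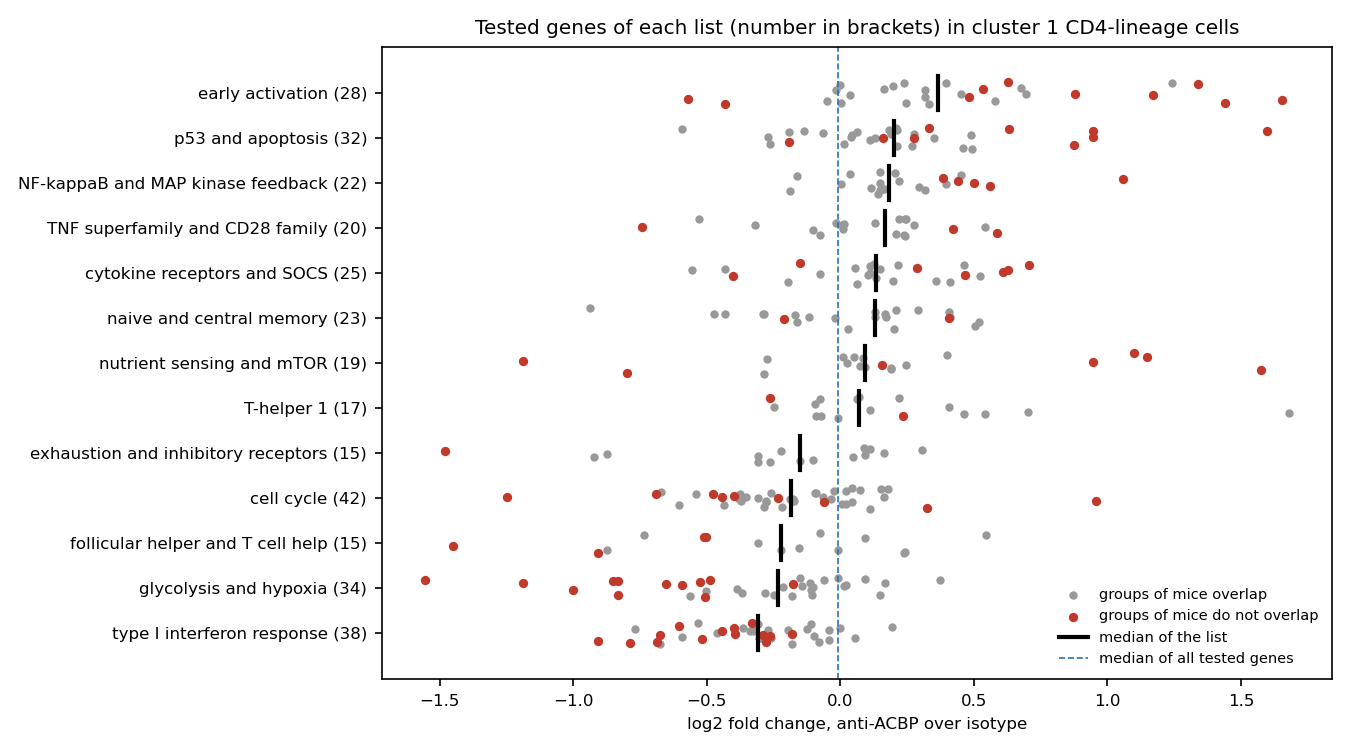
Log2 fold change of anti-ACBP over isotype (horizontal axis) of each tested gene of 13 lists in cluster 1 CD4 cells. Red points are genes whose groups of mice do not overlap, black bars list medians, and the dashed line is the median of all tested genes at -0.01: medians ran from -0.31 for type I interferon genes to 0.36 for early activation genes.

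Whether these changes differed from those of other T cells was tested with the same edgeR test, as the interaction of class and treatment in a fit that held a term for each mouse. Against regulatory T cells of cluster 2 (4598 cells), the change with anti-ACBP differed in 43 of 10747 genes (0.400%), 24 more positive in cluster 1 CD4 cells (0.223%) and 19 more negative (0.177%). The cluster 2 class was the whole cluster, with 3174 CD4-lineage cells, 228 CD8-lineage cells and 1196 cells with no lineage call. Socs1, an inhibitor of cytokine signalling, stood at 146, 159 and 187 CPM in anti-ACBP mice and 95.9, 120.5 and 109 CPM in isotype mice among cluster 1 CD4 cells, and at 249.7, 269 and 286 CPM in anti-ACBP mice and 78.0, 103 and 78.9 CPM in isotype mice among regulatory T cells. It was higher with anti-ACBP in both, without overlap, and the difference in log2 fold change was -1.01 ± 0.10 (SE; edgeR adjusted p = 0.000219). Tbx21 averaged 109 ± 16.99 CPM in anti-ACBP and 117 ± 6.01 CPM in isotype mice among cluster 1 CD4 cells, and 128 ± 16.3 CPM in anti-ACBP and 75.4 ± 11.2 CPM in isotype mice among regulatory T cells (SD, n = 3 each; difference -0.85 ± 0.13 SE; edgeR adjusted p = 0.0135). Lmna rose in both classes and by more in cluster 1 CD4 cells, with log2 fold changes of 1.98 in these and 1.402 in regulatory T cells (difference 0.55 ± 0.11 SE; edgeR adjusted p = 0.0480).

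The genes whose change was more positive in cluster 1 CD4 cells included ones of growth and division. Kif11, a motor of the mitotic spindle, stood at 5.25, 5.89 and 6.94 CPM in anti-ACBP mice and 4.19, 2.003 and 2.70 CPM in isotype mice among cluster 1 CD4 cells, against 21.2, 20.3 and 22.1 CPM in anti-ACBP mice and 48.5, 22.9 and 44.9 CPM in isotype mice among regulatory T cells (difference 1.79 ± 0.27 SE; edgeR adjusted p = 0.00804). Impdh2, an enzyme of guanine nucleotide synthesis (0.93 ± 0.13 SE), Nasp, a histone chaperone (0.87 ± 0.12 SE), H2afx (0.81 ± 0.13 SE) and Ncl, which encodes nucleolin (0.54 ± 0.09 SE), also differed in this direction. None of these genes, Kif11 included, passed in either class on its own. In thinned cells of cluster 2, Mki67 was found in 9.44, 9.72 and 8.05% in anti-ACBP mice and in 22.0, 14.4 and 21.1% in isotype mice. Among cluster 1 CD4 cells it was found in 2.85, 2.63 and 3.11% in anti-ACBP mice and in 4.06, 4.72 and 4.35% in isotype mice. The part of dividing cells in these differences was not tested. Of 50 tested cell cycle genes Kif11 alone passed, and the median difference was 0.71, from a median of -0.19 in cluster 1 CD4 cells and -0.88 in regulatory T cells, against -0.01 over all tested genes. More negative in cluster 1 CD4 cells were Oxsr1 (-1.16 ± 0.16 SE), the lysosomal protease Ctsd (-0.58 ± 0.09 SE) and the chemokine receptor Cx3cr1 (-1.46 ± 0.25 SE). Ddit4 changed nearly equally, with a difference of -0.01 ± 0.09 (SE; edgeR adjusted p = 0.988). Of the 9 genes that passed in cluster 1 CD4 cells, most also passed in regulatory T cells on their own. These were Lmna, Ddit4 (-1.19), Sgk1 (1.72), Rnf125 (0.64), Abhd18 (-1.09), Trim59 (-0.88) and Cdkn2d (-0.50). Emp1 (2.585) did not pass there, and Sostdc1 was too low to be tested. In that class 420 of 10372 tested genes passed. Without isotype 3 or anti-ACBP 3, 2 and 4 genes differed, without isotype 1, 12, and without anti-ACBP 1 or isotype 2, 110 and 219.

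Against CD8-lineage cells of cluster 1 (1025 cells), no gene differed in its change (0 of 8888, edgeR quasi-likelihood; 394 at an unadjusted p under 0.05). Of the 9 genes that passed in cluster 1 CD4 cells, Emp1 (1.67), Rnf125 (0.67), Ddit4 (-0.76) and Abhd18 (-1.41) also passed in these cells on their own, and Lmna (2.89), Sgk1 (1.09), Cdkn2d (-0.88) and Trim59 (-0.47) did not. Sostdc1 was too low to be tested there. The difference for Lmna was -0.96 ± 0.34 (SE) and for Ddit4 -0.41 ± 0.15 (SE), both with an adjusted p of 0.994. These sums hold fewer cells, so a miss here does not show that the 2 lineages changed alike.

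Against CD4-lineage cells of cluster 7 (645 cells), 2 of 9347 genes differed (0.0214%). AW112010, an interferon-inducible transcript of T cells, stood at 2936, 2344 and 3236 CPM in anti-ACBP mice and 3012, 2793 and 3006 CPM in isotype mice among cluster 1 CD4 cells, and at 4435, 2992 and 4136 CPM in anti-ACBP mice and 2889, 2847 and 3011 CPM in isotype mice among cluster 7 cells (difference -0.42 ± 0.08 SE; edgeR adjusted p = 0.00975). The other was Il3, a growth factor of myeloid cells. Its cluster 1 CD4 sums were 1, 45 and 112 UMIs in anti-ACBP mice and 1, 1 and 0 in isotype mice, and those of cluster 7 were 2, 0 and 1 UMIs in anti-ACBP mice and 24, 78 and 0 in isotype mice. Of the 112 UMIs 111 were in 1 cell, and the 78 were in 1 cell, so the fitted value for Il3 rests on single cells and is not given. Without isotype 1 no gene differed (432 at an unadjusted p under 0.05), without isotype 2 it was 4, without isotype 3 or anti-ACBP 3 it was 7, and without anti-ACBP 2 it was 14. Lmna (1.83), Ddit4 (-1.12), Rnf125 (0.75) and Cdkn2d (-0.99) also passed in cluster 7 cells on their own. Emp1 (0.99) and Trim59 (-0.76) did not pass there, and Sgk1, Abhd18 and Sostdc1 were too low to be tested.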

How the data were processed

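For every gene and barcode the authors deposited UMI counts, and their receptor table gives assembled contigs with UMI counts, per the file headers. Cell Ranger 7.0.0, Seurat and the build mm10 are named in the submitters' processing notes, without their roles. The sources used here do not say whether background RNA was subtracted. Cells, cluster numbers, phase and DF1 came from the deposited cell table, and in all of its cells the matrix sum equalled the table's UMI total.

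UMI counts of the chosen cells were summed per mouse, with receptor and immunoglobulin segment genes left out. Each library was taken as 1 mouse, and p-values measure the spread between these libraries. Sums were tested with edgeR 4.0.16 (robust quasi-likelihood, TMM, filterByExpr; R 4.3.3), two-sided, with Benjamini-Hochberg adjustment at 0.05 over all tested genes. DESeq2 1.42.0 was an alternative. CPM are plain, without TMM factors. On simulated counts with 9927 genes, 96% of genes changed 2-fold and 41% of those changed 1.5-fold were recovered in the treatment comparison, with 7 unchanged genes called. In the clone-size comparison with 6990 genes these were 100% and 98%, with 5 unchanged genes called. These shares hold for the simulated counts only, and the share of changed genes recovered in the deposited counts was not tested. Clone expansion and thinning were computed in closed form. Exact permutation tests used SciPy. The cells and the gene lists were chosen with earlier results of these data known.

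Named genes were a fixed set, up to 12 per direction that passed with at least 10 CPM in a group, up to 4 genes of each list with a gene that passed, the 12 higher and 12 lower genes with the smallest p where under 10 passed, and 5 per direction for each difference between classes. Other genes, including those of list and clone-size descriptions, were chosen after their values were seen. Some genes are not reported here. Doublets were not called here. Instead, cells with 2 or more TRB chains were left out in 1 alternative. Granzyme and Klr genes could share reads.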

Additional observations from a re-analysis of the deposited data

Results flagged for a closer look

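In all, 10 named genes changed differently with anti-ACBP in cluster 1 CD4 cells and in regulatory T cells of cluster 2, by the interaction test across all genes (edgeR quasi-likelihood, Benjamini-Hochberg). The difference in log2 fold change was positive for Kif11 (1.79), Impdh2 (0.93), Nasp (0.87), H2afx (0.81) and Ncl (0.54). It was negative for Cx3cr1 (-1.46), Oxsr1 (-1.16), Socs1 (-1.01), Tbx21 (-0.85) and Ctsd (-0.58). Cx3cr1, a chemokine receptor of effector cells, stood at 5.43, 8.51 and 8.95 CPM in anti-ACBP mice and 12.8, 36.4 and 27.6 CPM in isotype mice among cluster 1 CD4 cells, and at 10.03, 10.04 and 12.1 CPM in anti-ACBP mice and 7.50, 15.6 and 15.6 CPM in isotype mice among regulatory T cells. Oxsr1, a stress-responsive kinase, averaged 41.8 ± 10.3 CPM in anti-ACBP mice and 39.5 ± 6.37 CPM in isotype mice among cluster 1 CD4 cells, and 122 ± 35.3 CPM in anti-ACBP mice and 51.2 ± 7.14 CPM in isotype mice among regulatory T cells (SD, n = 3 each).

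Against CD4-lineage cells of cluster 7, the change of AW112010 differed by -0.42. What lies behind these differences was not tested.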

How the results depend on the processing

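For the treatment comparison 9 genes passed; it was 241 with no filter on low counts, 75 with the DESeq2 test, 16 without cells holding a Cd8a or Cd8b1 UMI, 18 with DF1 TRUE cells only, 17 without the 10 largest clones of each mouse, 12 with cells thinned to 2000 UMIs, and 2 to 145 with 1 mouse left out. With the replicate block it was 16. Deviations from the group means correlated at 0.08, -0.14 and -0.14 in same-numbered samples and from -0.18 to 0.29 in the other pairs. With 3 mice per group these correlations cannot show whether the numbers mark a shared batch. The difference from regulatory T cells counted 43 genes, 446 with no filter, 27 with thinned cells, 0 with no mouse block (686 at an unadjusted p under 0.05) and 2 to 219 with 1 mouse left out. That from CD8-lineage cells counted 0, 8 with no filter and 0 to 1 with 1 mouse left out. That from cluster 7 counted 2, 22 with no filter, 0 with thinned cells (352 at an unadjusted p under 0.05), 0 with no mouse block (270) and 0 to 14 with 1 mouse left out. Clone size gave 924 genes, 253 with no mouse block and 592 to 896 with 1 mouse left out. With 1 mouse left out the difference in expanded share ran from -3.93 to 1.80 points and that in sharing with cluster 2 cells from -0.69 to 5.05.

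With 1 mouse left out the log2 fold change of Ccr7 ran from -0.85 to 0.15 and of Cd8a from -0.73 to 0.44. Among named genes the sign turned for Ccr7 (0.08 without anti-ACBP 1, 0.09 without anti-ACBP 3, 0.15 without isotype 3, 0.00173 without the 10 largest clones), Cd40lg (0.14 without isotype 2), Cd8a (0.02 without anti-ACBP 3, 0.44 without isotype 1, 0.16 with DF1 TRUE cells) and the median of the naive and central memory list (-0.13 without isotype 2). None of these genes passed in the main comparison, and the cause was not tested. The medians of the type I interferon, glycolysis, early activation and p53 lists kept their sign in all 17 alternatives, at -0.41 to -0.21, -0.37 to -0.17, 0.28 to 0.49 and 0.11 to 0.25. Per cell, isotype 2 and 3 were the shallowest libraries. In the UMI sums that were tested, isotype 3 (1855078) and anti-ACBP 2 (3065776) were the smallest.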

Other observations

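The sharing of receptors with cluster 2 looked different when counted over cluster 2 cells, a count chosen after its values were seen. Of typed cells of cluster 2, 8.93, 6.59 and 7.49% in anti-ACBP mice and 22.9, 13.9 and 15.7% in isotype mice had a TRB chain of a cluster 1 CD4 cell, and the groups did not overlap. The means were 7.67 ± 1.18% in anti-ACBP mice and 17.5 ± 4.74% in isotype mice (SD, n = 3 each; exact two-sided permutation test, p = 0.1, the smallest that 3 against 3 allows). This count also depends on the number of typed cluster 1 CD4 cells, which was not made equal between mice. They numbered 718, 353 and 694 in anti-ACBP mice and 912, 1095 and 407 in isotype mice, and the part of these numbers was not tested. The largest shared clone held 113 of the 208 such cells of isotype 1 and 42 of the 86 of isotype 3, against at most 5 in an anti-ACBP mouse. With the largest shared clone of each mouse left out, the shares were 8.04, 5.74 and 5.83% in anti-ACBP mice and 11.9, 11.4 and 8.68% in isotype mice.

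The share of cells with Foxp3 was lower among cluster 2 cells that carried such a chain than among its other typed cells in each of the 6 mice, a difference that was not tested. A Foxp3 UMI was present in 4.35, 50 and 23.5% of them in anti-ACBP mice and in 70.2, 32.8 and 70.9% in isotype mice, against 81.2, 85.6 and 85.2% of the other cells in anti-ACBP mice and 88.0, 85.3 and 80.8% in isotype mice. Their median depth was higher in each mouse, at 5670, 9007 and 7346 UMIs in anti-ACBP mice and 9745, 4826 and 5432 UMIs in isotype mice, against 4884, 6994 and 4833 UMIs in the other cells of anti-ACBP mice and 8139, 4136 and 4154 UMIs in those of isotype mice. Among cluster 2 cells with a Foxp3 UMI, 0.522, 3.96 and 2.19% in anti-ACBP mice and 19.1, 5.87 and 14.02% in isotype mice had a chain of a cluster 1 CD4 cell.

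Counting each clone once, TRBV3 was the most used beta chain V gene of cluster 1 CD4 cells, at 22.1, 22.4 and 17.5% of clones in anti-ACBP mice and 16.01, 22.2 and 18.01% in isotype mice, which overlapped.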
